A study of Rattus norvegicus with 18 samples.

Results

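The proteins of the cytosolic ribosome were followed through RNA sequencing of rat nucleus pulposus cells, which populate the soft centre of each intervertebral disc. Members were the rows of the deposited gene table whose symbol is Rpl or Rps plus a number, with an optional a, x or y, together with Rplp0, Rplp1, Rplp2 and Rpsa. Kinases named Rps6k, Rps27l and other like-named paralogs were left out, and a symbol with several rows was represented by the row with the most counts. The rule gave 73 of the 33898 rows. Of these, 71 passed the filter on low counts, among 14184 genes tested. The members held 28 proteins of the 40S subunit, 42 of the 60S subunit and the 3 stalk proteins. None of the 73 rows carried the symbols Rpl22, Rps14, Rps19 or Rps26. Rows described as these proteins under other names, such as S26 with 174386 counts and S14 with 144691, were not analysed here as members.

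Cells came from Sprague Dawley rats aged 8 weeks and were grown in culture. PDS (pyridostatin), Phen-DC3 and Braco-19, small molecules that bind G-quadruplexes, were each given for 24 h to 3 libraries per compound. Each compound was set against 3 control libraries. PDS and Phen-DC3 are named in the titles of their controls, and the remaining control group was matched to Braco-19 by elimination. Doses are not in the labels, so the 3 compounds are not known to have been given at matched doses. The libraries are described as biological repeats, but no label names separate cultures or animals, so every p-value measures differences against the spread between libraries.

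Ribosomal proteins assemble on ribosomal RNA in the nucleolus, and the small and large subunits then join on an mRNA to translate it. Their mRNAs are among the most abundant of most cells and usually begin with a cytosine followed by a run of pyrimidines, the 5′ terminal oligopyrimidine (5′ TOP) motif. Through that motif the mTOR kinase and the RNA-binding protein Larp1 set how much of these mRNAs is translated and kept. Free Rpl5 and Rpl11 bind MDM2 when ribosome assembly is disturbed. G-quadruplexes are stacks of guanine quartets that form in G-rich DNA and RNA.

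The start of transcription was read from the RefSeq promoter table of build GRCr8, in which 58 member symbols had 59 entries (Rps27a has more than 1). Each window below holds 20 bases before and 20 bases from the start site, read 5′ to 3′ on the gene's strand, with the unbroken run of C and T from the start base in capitals. They are shown because the 5′ TOP motif sits at this place. The first 6 belong to the members with the smallest p-values under Phen-DC3, and Rpl24 is shown as a member with no such run.
Rplp0, chr12:46718371-46718410, minus strand: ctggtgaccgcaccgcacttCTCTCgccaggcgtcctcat
Rps15, chr7:10068096-10068135, minus strand: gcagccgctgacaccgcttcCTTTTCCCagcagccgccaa
Rps10, chr20:5700725-5700764, minus strand: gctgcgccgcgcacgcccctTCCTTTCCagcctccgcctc
Rpl31, chr9:49143091-49143130, plus strand: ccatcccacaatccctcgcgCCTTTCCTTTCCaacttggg
Rpl35, chr3:43165902-43165941, minus strand: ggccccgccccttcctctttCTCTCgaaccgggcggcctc
Rpl28, chr1:78083513-78083552, minus strand: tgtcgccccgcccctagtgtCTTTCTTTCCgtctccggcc
Rpl24, chr11:58128386-58128425, minus strand: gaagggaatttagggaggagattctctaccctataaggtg
A C at the start followed by at least 4 bases that are each C or T was present in 21 of the 59 member entries (35.6%) and in 2.63% of all 33469 promoter entries. Of the 7 windows, Rps10 begins its run with T and so falls outside that definition.

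The compounds bind G-quadruplexes, so the pattern of 4 runs of at least 3 G separated by 1 to 7 bases was searched on both strands, from 250 bases before to 50 bases after each start. It was found in 1 of the 59 member entries (1.69%), that of Rpl31, and in 16.6% of all entries of the same length. The first match met along the opposite strand lay 164 to 140 bases before the Rpl31 start. It appears below as C runs on the gene's strand, in capitals, with 20 bases on each side. The lower-case C runs to its left, taken with the first capitals, also meet the pattern, so the capitals do not mark every match.
Rpl31, chr9:49142927-49142991, plus strand: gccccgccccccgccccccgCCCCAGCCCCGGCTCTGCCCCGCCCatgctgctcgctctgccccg
Member promoters were not poor in G and C: their median GC content was 56.7%, against 51.7% over all entries. Short runs of 3 or more G or C were fewer, with a median of 8 per window against 10. At least 4 such runs were present in 98.3% of member entries and 90.3% of all entries. Other motifs, searched on both strands with overlaps allowed, were CCGGAAG (an ETS-type site, 32.2% of member entries and 8.75% of all), GGGCGG (a GC box, 61.0% and 33.1%), AAGATGG (15.3% and 7.01%) and TATAAA (10.2% and 14.2%). A match of letters is a description of the window and not a binding site.

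Library totals ran from 15715121 to 18369443 counts. Of the nucleus pulposus markers, 15 of 18 had a row, and their summed level was 189 to 250 CPM (counts scaled by library size) per library. Tbxt, Krt19, Shh and Noto were at 0, Acan was at 0.139 to 2.85 CPM and Pax1 at 76.1 to 111 CPM as group means. Fibroblast or annulus markers, of which 9 of 10 had a row, summed to 2591 to 3245 CPM in the 12 libraries of PDS, Phen-DC3 and their controls and to 6335 to 8584 CPM in the 6 libraries of Braco-19 and its controls. Defining markers of leukocytes (Ptprc), endothelium (Cdh5, Cldn5) and red cells (Hba-a1, Hbb) were at 0 in all 18 libraries. Those lists (9 of 9, 6 of 7 and 5 of 6 with a row) summed to 1.90 to 6.16, 0.0587 to 1.87 and 0 to 0.830 CPM. In such bulk RNA, fewer cells of a kind and less RNA per cell cannot be told apart.

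The 73 member rows together took 5.53% ± 0.314 of counts (SD, n = 3) in PDS controls, 4.73% ± 0.453 in Phen-DC3 controls and 2.10% ± 0.0276 in Braco-19 controls. With PDS the share was 5.07, 4.99 and 4.81%, below its 3 controls at 5.23, 5.52 and 5.85%. With Phen-DC3 it was 6.06, 5.63 and 5.37%, above its controls at 4.26, 4.77 and 5.17%. With Braco-19 it was 2.34, 2.74 and 2.51%, above its controls at 2.09, 2.08 and 2.13%. The share of mitochondrial genes was 3.30, 2.74 and 2.84% in Braco-19 controls and 2.46, 2.22 and 2.18% with Braco-19, also without overlap, and its part in the member share was not tested. The member shares of each compound and its own controls did not overlap, and PDS lay on the other side from the remaining compounds. The share held by genes longer than 5000 bp ran the other way for Phen-DC3. It was 10.7, 9.97 and 9.26% in Phen-DC3 controls and 7.42, 8.11 and 8.44% with Phen-DC3, and the control library with the lowest member share had the highest long-gene share. The part of long genes in the member shares was not tested. For PDS the long-gene shares overlapped (7.98 to 9.08% in controls and 8.35 to 8.91% with PDS), and for Braco-19 they did too (25.1 to 25.4% and 23.3 to 25.2%). Fibronectin (Fn1) alone held 7.75% ± 0.0416 of counts in Braco-19 controls and 0.881% ± 0.151 in PDS controls.

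**Figure D1:**
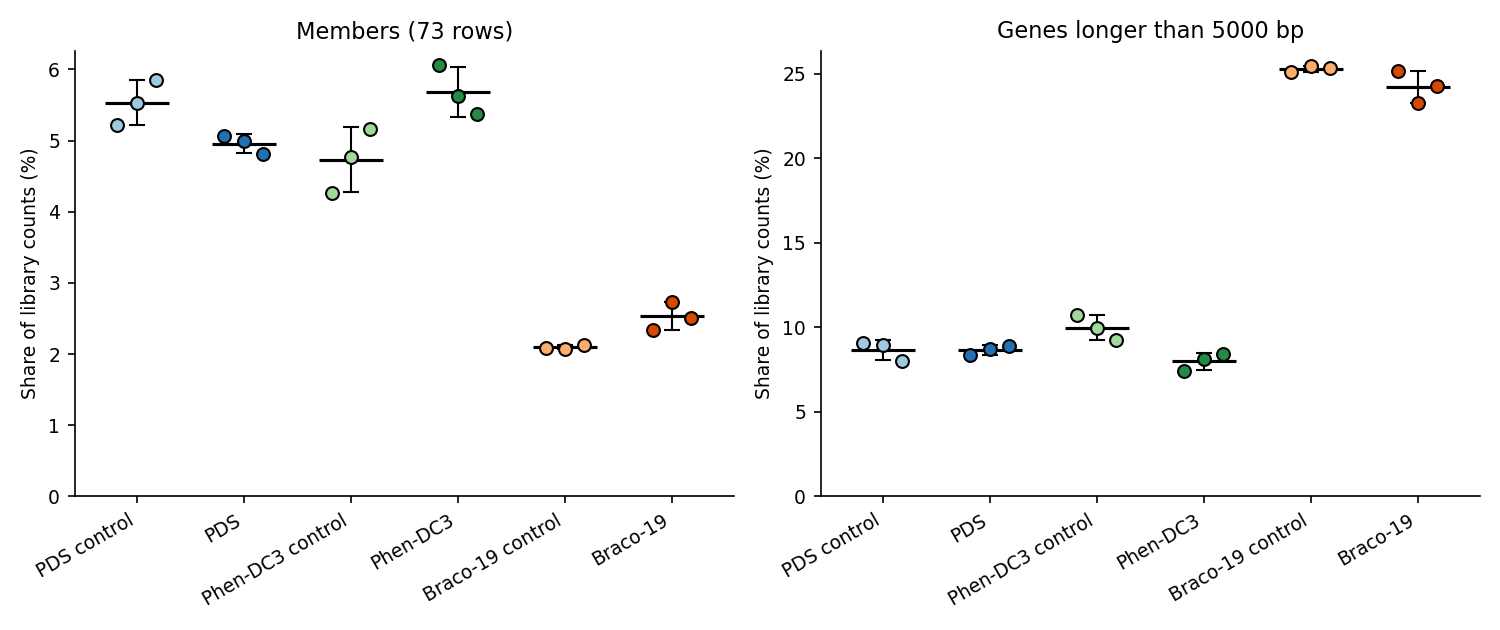
Share of each library's counts (%, y axis from 0) in the 73 member rows (left) and in genes longer than 5000 bp (right) for 6 groups; points are libraries, the line and bar are mean and SD (n = 3). Member shares of PDS lie below its controls and those of Phen-DC3 and Braco-19 above theirs; both Braco-19 groups sit between 2.08 and 2.74% for members and above 23% for long genes.

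The deposited table, whose genome build is not stated, places Rplp0 (ENSRNOG00000001148) on chromosome 12 from 46791528 to 46794797 on the minus strand. It places Rps15 on chromosome 7 from 12282109 to 12283608, minus strand, and Rpl31 on chromosome 9 from 46086984 to 46090997, plus strand. Levels of different members were compared as CPM per kb of the deposited gene length. Rplp0, the scaffold of the stalk that recruits translation factors, was highest at 2715 CPM per kb over the 18 libraries. It was followed by Rplp1, its acidic stalk partner, at 2539, by Rpl41, the smallest protein of the large subunit, at 2458, and by Rpsa, the laminin receptor protein of the 40S subunit, at 2121. The median tested member was at 723 CPM per kb and the quartiles differed by a factor of 3.42. In the PDS controls Rplp0 was at 3677 ± 202, Rplp1 at 3457 ± 260 and Rpl41 at 3586 ± 547 CPM per kb (SD, n = 3), so these neighbours in the order did not differ beyond their spread. Rpsa, at 2756 ± 98.1, lay below them. The order was much alike in every group, with a lowest Spearman correlation between group means of 0.941 over the 71 members. Member gene models had a median length of 669 bp, against 2248 bp over all tested genes, and ran from 213 bp (Rpl38) to 5151 bp (Rpl7). A long model lowers a level per kb, and Rpl7 stood at 205 CPM per kb with 319714 counts.

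**Figure D2:**
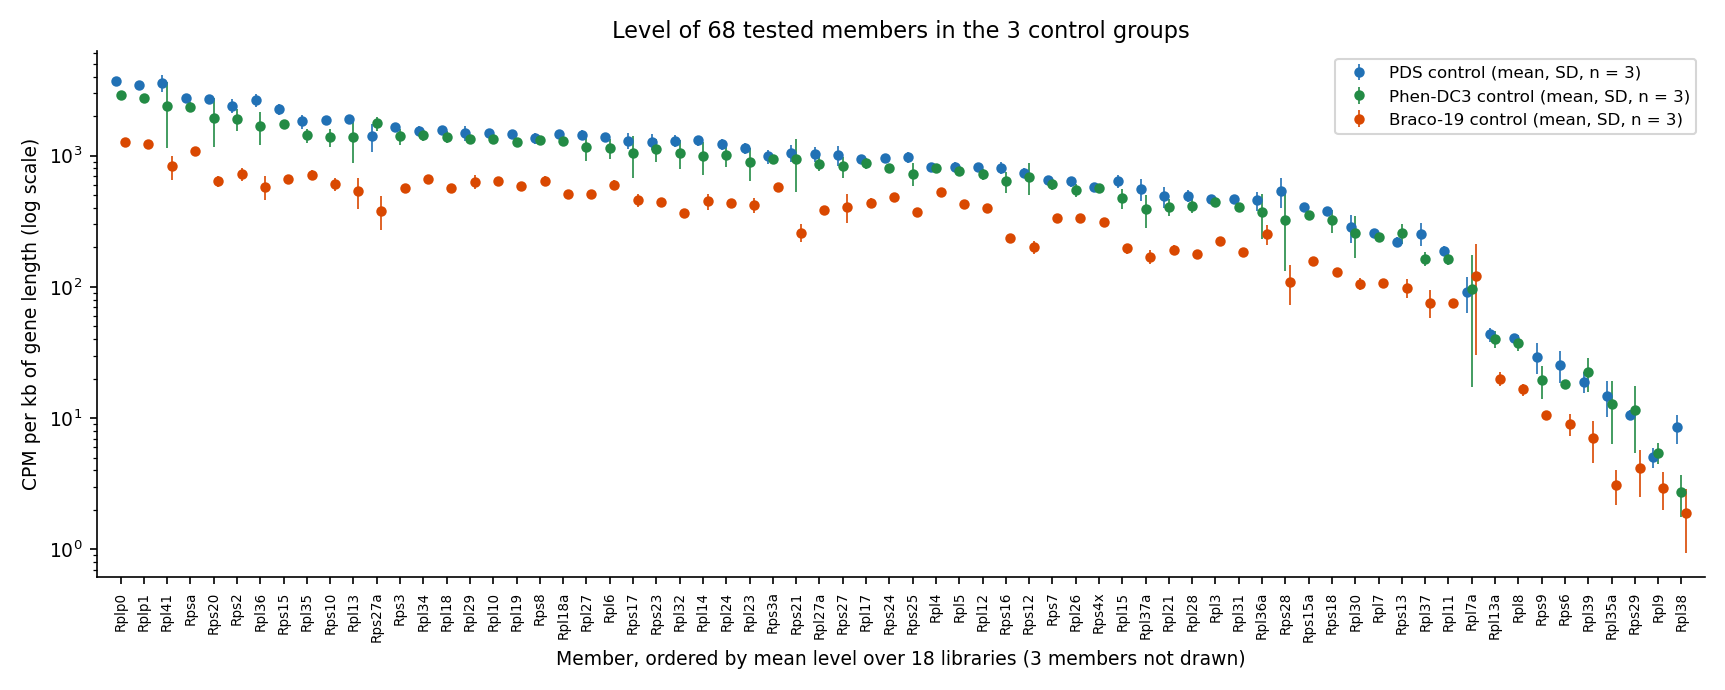
Level per length (CPM per kb, log scale) of 68 tested members in the 3 control groups, as mean and SD of 3 libraries, ordered by the mean over 18 libraries; 3 members are not drawn, among them Rplp2, whose level was near 0. PDS and Phen-DC3 controls lie close together and Braco-19 controls lie lower for nearly every member, with Rpl7a an exception.

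Some member rows held few of their protein's reads. The lowest tested rows were Rps29 at 9.22, Rpl9 at 4.76, Rpl38 at 4.52 and Rplp2 at 1.12 CPM per kb, and the rows of Rpl10a and Rpl23a had 0 counts and were not tested. Outside the rule, 141 further rows with 1468908 counts were described in the table under the same protein names, many of them near-identical copies. They include like-named paralogs such as Rps27l and Rpl7l1. The member row held 0.546% of the counts described as L9, 0.696% for S29, 0.663% for L38 and 0.179% for the stalk protein P2. For L7a it held 34.4% and for S27a 64.6%. The rows of Rps13, Rpl37, Rpl39, Rpl35a, Rps29, Rpl9 and Rpl38 lie on a chromosome other than that of RefSeq's gene of the same symbol. The member row also held 29.1% for S6, 29.4% for L30, 36.1% for L8, 43.1% for L13a, 45.8% for S12, 54% for L21, 63.7% for L36a and 64.1% for L12. Values of the 7 rows on another chromosome, of Rplp2, Rpl7a and Rps27a, and of these further members are therefore uncertain as measures of the protein's mRNA.

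The 3 control groups were compared first. Against PDS controls, 69 of 71 members were lower in Braco-19 controls (edgeR quasi-likelihood test, adjusted p under 0.05), with a median log2 difference of -1.43, and 0 were higher. Over all tested genes 35.6% were lower and 37.7% higher, with a median of 0.02. Rplp0 was at 3765, 4167 and 4125 CPM in PDS controls and at 1394, 1403 and 1372 CPM in Braco-19 controls, a log2 difference of -1.53 ± 0.070 (SE, edgeR adjusted p = 1.7e-13). Rps15, a 40S protein near the decoding site, was at 1111, 1322 and 1313 CPM and at 375, 352 and 375 CPM, a difference of -1.76 ± 0.083 (edgeR adjusted p = 2.6e-13). No library of one group reached the other for either gene. Rpl4, which lines the exit tunnel, differed less, by -0.63 ± 0.064 (edgeR adjusted p = 1.8e-08). Rpsa differed by -1.34 ± 0.070 and Rpl19, which bridges the subunits, by -1.30 ± 0.068 (edgeR adjusted p = 1.0e-12 and 9.3e-13). The members not called were Rpl7a, at 0.41 with overlapping libraries, and Rplp2. With the 3 rows described as L7a summed, chosen after the data were seen, the difference was -0.97 (edgeR adjusted p = 0.02).

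Against Phen-DC3 controls, 68 members were lower in Braco-19 controls (34.6% of all genes lower) and 0 higher (34.9% of all genes), with a median of -1.14. The summed fibroblast markers and long-gene share differed between these groups, as given above, and their part in the difference was not tested. With each library corrected for its trend with gene length, 65 members stayed lower against PDS controls with a median of -0.77, and 62 against Phen-DC3 controls with a median of -0.63. Over all genes in those fits 33.1% were lower and 33.9% higher against PDS controls, and 31.7% lower and 31.1% higher against Phen-DC3 controls. The controls of Braco-19 cannot be told apart from whatever else the 6 libraries of that experiment share.

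Phen-DC3 controls and PDS controls also differed. In Phen-DC3 controls 10 of 71 members were lower (1.59% of all genes) and 0 higher (4.50%), with a median log2 difference of -0.24. Rplp1 was at 1390, 1282 and 1385 CPM against 1612, 1673 and 1859 CPM in PDS controls, a difference of -0.34 ± 0.072 (edgeR adjusted p = 0.019). Rplp0 differed by -0.34 ± 0.068 (edgeR adjusted p = 0.017), Rps15 by -0.38 ± 0.081 (edgeR adjusted p = 0.019) and Rps10, a 40S protein ubiquitinated on stalled ribosomes, by -0.43 ± 0.101 (edgeR adjusted p = 0.023). Rpl37 differed by -0.64 ± 0.152 (edgeR adjusted p = 0.026), and Rpl15, Rpl35, Rpl38 and Rps24 were among the rest. The count was 0 without PDS control 2, without Phen-DC3 control 1 or without Phen-DC3 control 2, 1 without PDS control 3 and 23 without Phen-DC3 control 3. It was also 0 with only these groups in the fit, where 25 members had an unadjusted p under 0.05. The share of all genes at such a p was not counted in that fit. DESeq2 called 21 members and 4.07% of all genes lower. Without Phen-DC3 control 3 the share of all genes lower was 7.33%.

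With Phen-DC3, 18 of 71 members were higher than in its own controls and 0 lower, while 2.19% of all tested genes were higher and 5.82% lower. The median log2 change was 0.34 over members and -0.01 over all genes, and 70 members had a positive value, against 48.7% of all genes. In 33 members the 3 treated libraries lay above all 3 controls, against 10.1% of all genes, and in 0 they lay below, against 11.9%. An unadjusted p under 0.05 was reached by 46 members, against 28.9% of all genes. The 18 comprised 1 of 3 stalk, 10 of 40 tested 60S and 7 of 28 40S members, with medians of 0.34, 0.30 and 0.35.

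In the stalk, Rplp0 was at 2907, 3256 and 3362 CPM in controls and at 4261, 3749 and 4013 CPM with Phen-DC3. All treated libraries were higher, and the change was 0.34 ± 0.068 on the log2 scale, or 1.26-fold (edgeR adjusted p = 0.012). Rplp1 was at 1390, 1282 and 1385 CPM and at 1694, 1475 and 1563 CPM, without overlap, with a change of 0.22 ± 0.072 that missed the threshold (edgeR adjusted p = 0.059). Rplp2 was under 1 CPM except for 2.47 CPM in Phen-DC3 1, and its value was 3.50 ± 1.51 (edgeR adjusted p = 0.14).

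Among 60S members, Rpl31, which sits beside the exit tunnel and whose promoter is printed above, was at 453, 452 and 498 CPM in controls and at 625, 649 and 549 CPM with Phen-DC3. It rose by 0.38 ± 0.085 (edgeR adjusted p = 0.017) with no overlap. Rpl35, another protein of the tunnel exit, rose from 574, 616 and 726 CPM to 855, 906 and 764 CPM, by 0.40 ± 0.098 (edgeR adjusted p = 0.023). Rpl28 rose from 556, 638 and 707 CPM to 871, 836 and 738 CPM, by 0.36 ± 0.091 (edgeR adjusted p = 0.024). In all 3 genes the lowest treated library stood above the highest control. Rpl27, named for its overlap after its values were seen, had a larger value of 0.50 ± 0.135 (edgeR adjusted p = 0.036), but its groups overlapped, since Phen-DC3 3 was at 638 CPM and control 3 at 668 CPM. The remaining 60S members called were Rpl6, Rpl10, Rpl15, Rpl18, Rpl19 and Rpl24, with values from 0.22 to 0.40. Rpl5 and Rpl11, which carry the 5S ribosomal RNA and bind MDM2, did not pass, with values of 0.17 ± 0.069 (edgeR adjusted p = 0.11) and 0.25 ± 0.084 (edgeR adjusted p = 0.062). Rpl41 had a larger value, 0.72 ± 0.332, without a call (edgeR adjusted p = 0.17). Its controls ran from 430 CPM in control 1 to 1302 and 1442 CPM, below the treated libraries at 1880, 1768 and 1582 CPM.

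Among 40S members, Rps15 was at 959, 883 and 1038 CPM in controls and at 1361, 1235 and 1137 CPM with Phen-DC3. It rose by 0.37 ± 0.081 (edgeR adjusted p = 0.015). Rps10 was at 540, 657 and 740 CPM and at 959, 843 and 855 CPM, and rose by 0.46 ± 0.101 (edgeR adjusted p = 0.016). Neither gene's groups overlapped. The largest called change was that of Rps9, a protein of the mRNA entry channel, at 0.74 ± 0.206 or 1.68-fold (edgeR adjusted p = 0.042). Its libraries overlapped, at 35.0, 42.4 and 60.3 CPM in controls and 96.5, 76.1 and 58.3 CPM treated. Rps3, which helps to form the mRNA entry site, rose by 0.37 ± 0.102 (edgeR adjusted p = 0.036), and Rps16 was also called. Rpsa stood at 0.22 ± 0.069 (edgeR adjusted p = 0.053). Rps27a, made as a fusion with ubiquitin, stood at 0.01 ± 0.221 (edgeR adjusted p = 0.98).

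**Figure D3:**
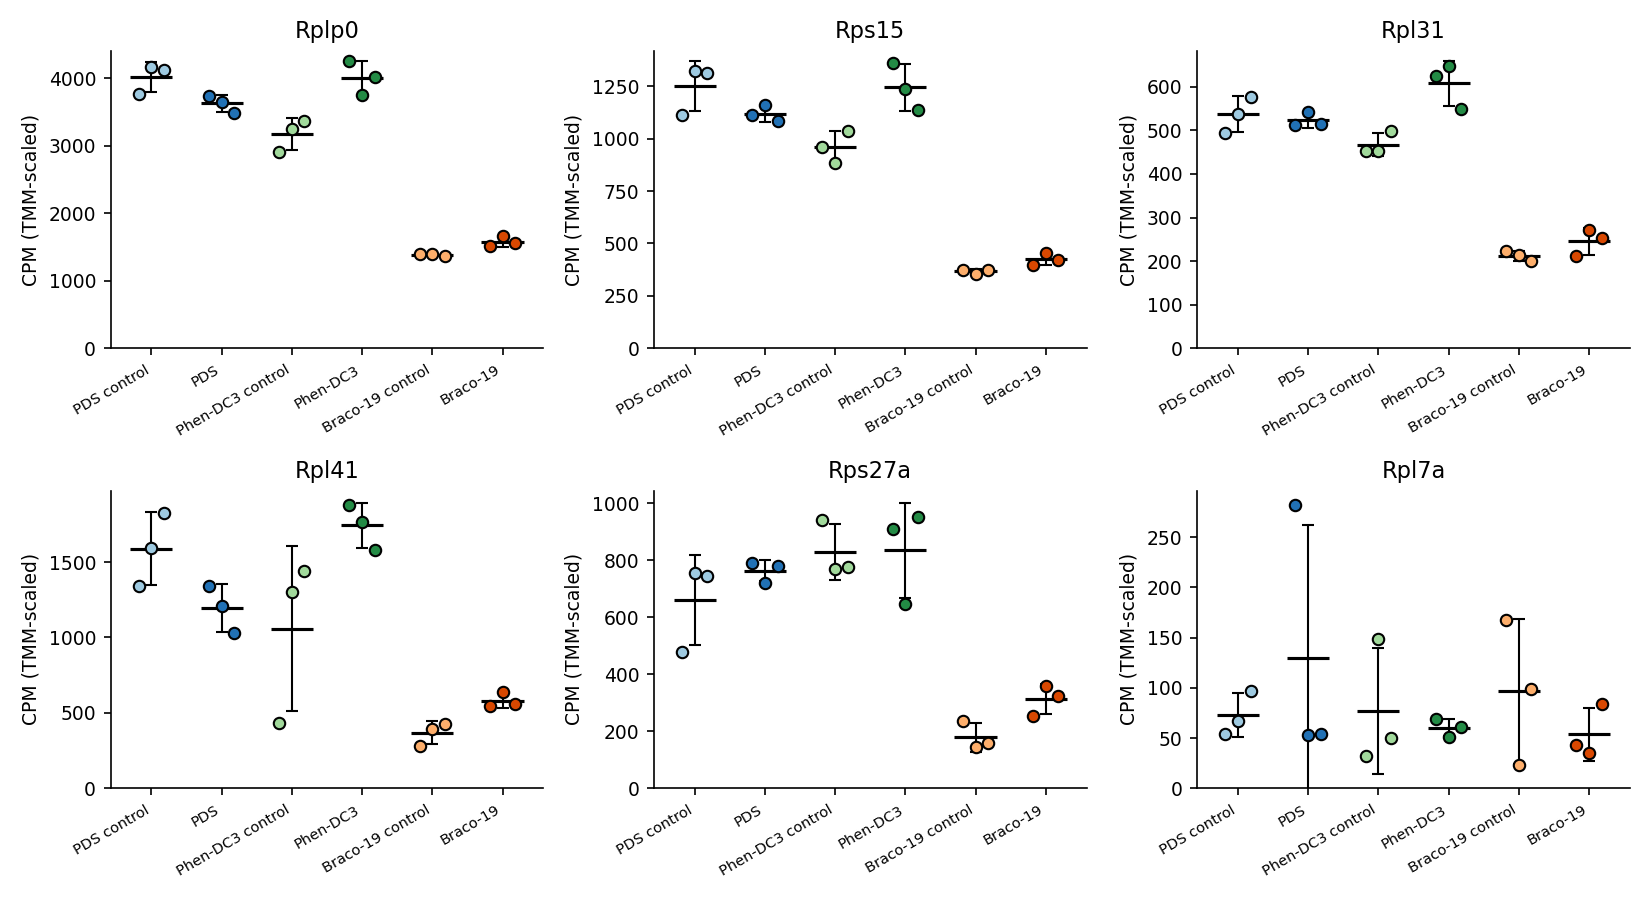
Level (CPM on TMM-scaled library sizes, y axis from 0) of 6 members in each of the 18 libraries; points are libraries, the line and bar are mean and SD (n = 3), and the bar of Rpl7a with PDS runs below the axis. Rplp0, Rps15 and Rpl31 lie higher with Phen-DC3 than in its controls and lowest in the Braco-19 groups, Rpl41 has 1 low Phen-DC3 control at 430 CPM, and Rpl7a has single high libraries of 282 CPM (PDS 1) and 168 CPM (Braco-19 control 1).

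The Phen-DC3 count changed with single libraries and with the scale chosen. The count of members called was 0 without Phen-DC3 control 1 or without Phen-DC3 1, 1 without control 2 or without Phen-DC3 2, 38 without control 3 and 28 without Phen-DC3 3, while the median stayed between 0.26 and 0.38. With the trend with gene length corrected in each library it was 0 by edgeR, with 25 members at an unadjusted p under 0.05 and a median of 0.18. The share of all genes at such a p was not counted in that fit. DESeq2 called 36, without that correction. The share of all genes called higher moved too, to 10.0% without control 3, 7.27% without Phen-DC3 3, 0.120% with the length correction and 5.60% by DESeq2.

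With PDS, 1 of 71 members was called lower and 0 higher, while 2.96% of all tested genes were lower and 5.13% higher. The median log2 change was -0.15 over members and 0.02 over all genes, with 59 negative values (47.1% of all genes) and 16 members at an unadjusted p under 0.05 (22.8%). In 29 members all treated libraries lay below all controls, against 15.6% of all genes, and in 3 above, against 17.7%. The member called was Rpl38, which is needed for translation of a subset of Hox mRNAs. Its row was at 1.75, 2.30 and 1.38 CPM in controls and at 0.830, 0.361 and 0.587 CPM with PDS, a change of -1.60 ± 0.426 (edgeR adjusted p = 0.023). This row held 294 counts over all libraries, on chromosome 8, where RefSeq does not place the gene. With the 6 rows described as L38 summed to 44320 counts, the change was -0.19 ± 0.193 (edgeR adjusted p = 0.60).

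Rps6, the target of S6 kinases in the 40S subunit, passed the test only with its rows summed. Its own row, of 3967 counts, was at 17.0, 15.1 and 24.8 CPM in controls and at 17.1, 15.7 and 13.7 CPM with PDS, with overlap and a value of -0.29 ± 0.167 (edgeR adjusted p = 0.30). The 2 rows described as S6 together held 13612 counts and fell by 0.58 on the log2 scale (SE 0.105, edgeR adjusted p = 0.0013). The sums of rows for L38, S6 and, below, L7a were chosen after the data were seen.

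Several abundant members had PDS libraries below all controls without passing the test. Rpl3, an early-assembling core protein, was at 1601, 1618 and 1684 CPM in controls and at 1443, 1454 and 1446 CPM treated, with a value of -0.18 ± 0.061 (edgeR adjusted p = 0.083). Rpl4 was at 1126, 1073 and 1226 CPM and at 1018, 990 and 985 CPM, with -0.19 ± 0.064 (edgeR adjusted p = 0.068). Rpl7 stood at -0.21 ± 0.072 (edgeR adjusted p = 0.075). None of these groups overlapped. Rps4x, a 40S protein encoded on the X chromosome, stood at -0.01 ± 0.065 (edgeR adjusted p = 0.96). The lowest values among well expressed members were those of Rps20 at -0.54 ± 0.258 (edgeR adjusted p = 0.23), Rpl13 at -0.52 ± 0.257 (edgeR adjusted p = 0.25) and Rps28 at -0.51 ± 0.419 (edgeR adjusted p = 0.50). The highest was Rpl7a at 0.84 ± 0.802 (edgeR adjusted p = 0.57), from PDS 1 at 282 CPM with the other PDS libraries at 52.6 and 54.4 CPM. With the 3 rows described as L7a summed to 71504 counts, the value was -0.27 ± 0.336 (edgeR adjusted p = 0.67). Next came Rps27a at 0.21 and Rpl29 at 0.19, neither of them called (edgeR adjusted p = 0.61 and 0.52). With only PDS and its controls in the fit, 20 members were called lower, against 8.08% of all genes in that fit. Without PDS control 1, PDS control 2, PDS 2 or PDS 3 the count was 0.

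Braco-19 had 0 of 71 members called in either direction by edgeR, where 0.169% of all genes were higher and 0.106% lower. DESeq2 called 11 higher, and 1.40% of all genes. The median was 0.26 over members and 0.00 over all genes, and 61 values were positive, against 50.5% of all genes. In 37 members the treated libraries lay above all controls, against 13.7% of all genes, and in 0 below, against 14.4%. An unadjusted p under 0.05 was reached by 39 members, against 18.8% of all genes. The smallest adjusted p among members was 0.098 (edgeR), that of Rpl7, which was at 568, 550 and 532 CPM in controls and at 639, 725 and 656 CPM treated, a value of 0.29 ± 0.072. Rplp0 was at 1515, 1671 and 1558 CPM against 1394, 1403 and 1372 CPM, with 0.19 ± 0.068 (edgeR adjusted p = 0.17). The largest values among well expressed members were in the 40S subunit. Rps20 stood at 0.88 ± 0.261 (edgeR adjusted p = 0.14), Rps21 at 0.87 ± 0.319 (edgeR adjusted p = 0.19) and Rps27a at 0.80 ± 0.224 (edgeR adjusted p = 0.14). With the 3 rows described as S27a summed to 278676 counts, a sum chosen after the data were seen, that value was -0.15 ± 0.0947 (edgeR adjusted p = 0.40). Rps20 was at 204, 245 and 239 CPM in controls and at 346, 487 and 435 CPM treated, without overlap. At the other end stood Rpl7a at -0.84 (edgeR adjusted p = 0.59; -0.06 with its 3 rows summed, edgeR adjusted p = 0.93), Rpl36a at -0.28 (edgeR adjusted p = 0.50) and Rpl26, which binds p53 mRNA, at -0.20 ± 0.089 (edgeR adjusted p = 0.24). With only Braco-19 and its controls in the fit, 18 members were called higher, against 3.21% of all genes in that fit. Without Braco-19 1, the count was 3, against 0.833% of all genes.

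**Figure D4:**
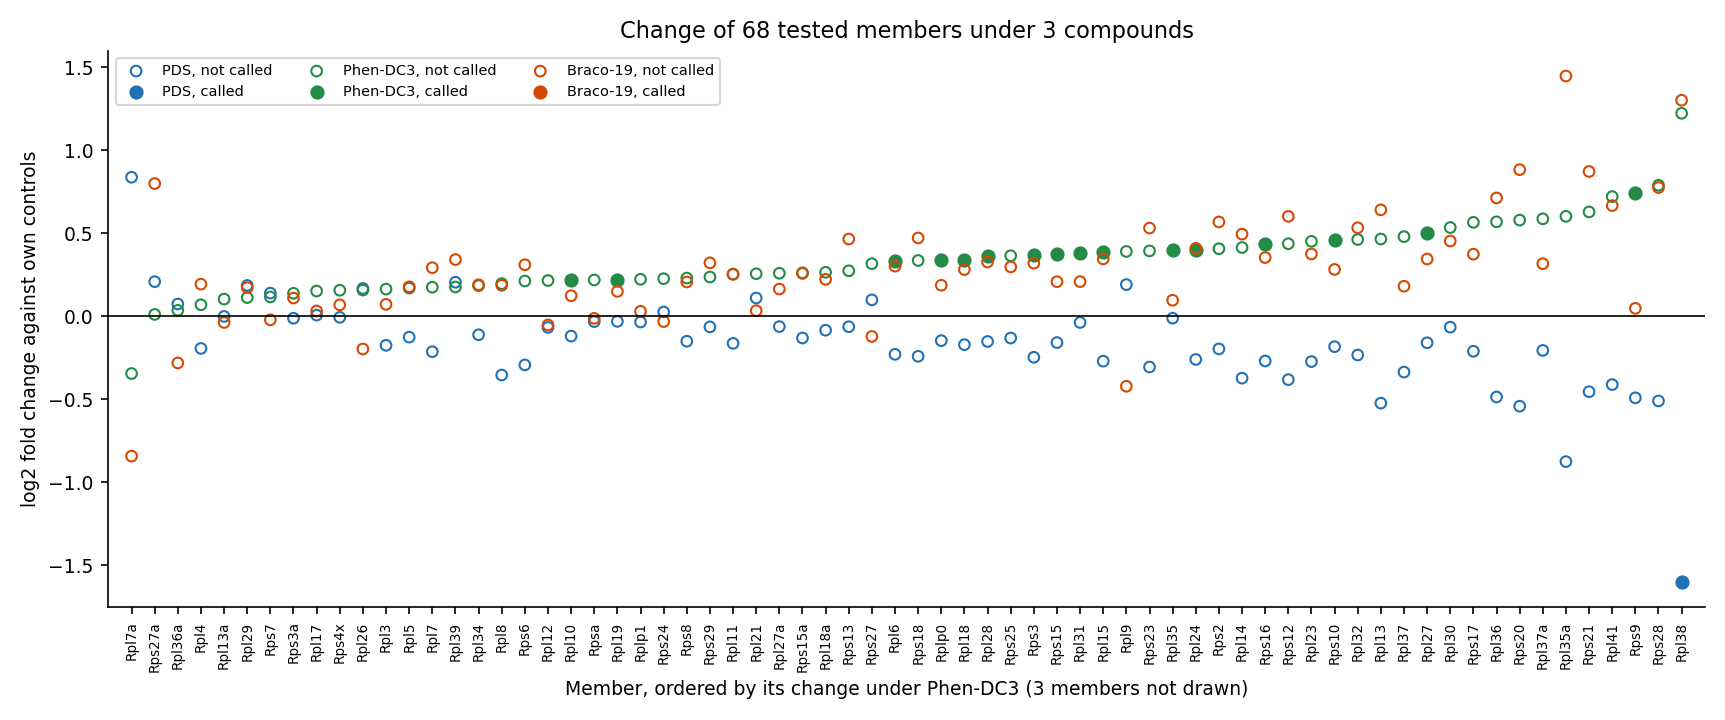
The log2 fold change of 68 tested members (3 not drawn) under PDS, Phen-DC3 and Braco-19, each against its own controls, ordered by the Phen-DC3 value; filled points passed an adjusted p of 0.05. Most PDS values lie below 0 and most Phen-DC3 and Braco-19 values above it, 16 Phen-DC3 points and the PDS point of Rpl38 are filled, and Rpl7a at the left runs opposite to the rest.

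The differences between compounds were then tested as interactions, over 3 pairs. The change under PDS was lower than that under Phen-DC3 for 37 of 71 members (7.76% of all genes lower) and higher for 0 (12.4% higher), with a median difference of -0.47. Rplp0 differed by -0.48 ± 0.097 (edgeR adjusted p = 0.0034), Rps15 by -0.53 ± 0.114 (edgeR adjusted p = 0.0048), Rps10 by -0.64 ± 0.142 (edgeR adjusted p = 0.0060) and Rps3 by -0.61 ± 0.144 (edgeR adjusted p = 0.0081). The row of Rpl38, with the few counts given above, differed by -2.82 ± 0.609 (edgeR adjusted p = 0.0049), and the 6 rows described as L38, summed, by -0.80 (edgeR adjusted p = 0.052). Rpl3, Rpl4, Rpl5 and Rpl11, not called under either compound, were among the 37, with differences of -0.34, -0.26, -0.30 and -0.42. The count ran from 15 to 44 on leaving out single libraries. It fell to 16 without PDS control 3, 16 without PDS 3, 15 without Phen-DC3 1, 20 without Phen-DC3 2, 21 without PDS 2, 23 without PDS control 2 and 24 without Phen-DC3 control 2. Over these fits the share of all genes lower ran from 3.21%, without Phen-DC3 1, to 12.5%, without Phen-DC3 control 3. With the length trend corrected the count was 13, against 5.50% of all genes.

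The change under PDS was lower than that under Braco-19 for 26 members (6.75% of all genes) and higher for 0 (7.28%), with a median of -0.43. Rpl7 had the smallest adjusted p, with a difference of -0.51 ± 0.102 (edgeR adjusted p = 0.0041). Rpl4 differed by -0.39 ± 0.091 (edgeR adjusted p = 0.010), Rpl24, which reaches from the large to the small subunit, by -0.67 ± 0.161 (edgeR adjusted p = 0.013) and Rps3 by -0.57 ± 0.144 (edgeR adjusted p = 0.016). The low rows of Rpl38 and Rpl35a differed by -2.90 ± 0.630 (edgeR adjusted p = 0.0066) and -2.32 ± 0.565 (edgeR adjusted p = 0.014). With their described rows summed these were -0.80 and -0.98 (edgeR adjusted p = 0.069 and 0.082). On leaving out single libraries the count of lower members ran from 6, without PDS 3 or without Braco-19 2, to 33, without Braco-19 1, where 1 was higher. It was 8 without PDS control 3, where 1 was higher, and 9 without Braco-19 control 1. It was 12 without PDS 2 or without Braco-19 3, 13 without PDS control 2, and 15 and 16 without Braco-19 controls 2 and 3. Over these fits the share of all genes lower ran from 2.79%, without PDS 3, to 8.45%, without Braco-19 1.

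Phen-DC3 and Braco-19 differed for 0 members by edgeR and by DESeq2, with 8 and 9 at an unadjusted p under 0.05. Over all genes 0.0141% were called higher and 0.0353% lower, and 9.48% had such a p. The median difference was 0.05. The difference of Rplp0 was 0.15 with a 95% interval of -0.05 to 0.35, that of Rps15 was 0.17 (-0.07 to 0.40) and that of Rpl31 was 0.17 (-0.08 to 0.42). These intervals hold differences in either direction, so a missed threshold does not show that the compounds act alike. For Rps27a the difference was -0.79, with an interval of -1.47 to -0.11 (edgeR adjusted p = 0.47), which lies below 0 before adjustment only. With the 3 rows described as S27a summed, the difference was 0.26 ± 0.134 (edgeR adjusted p = 0.56), on the other side of 0.

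Across the 71 members the 3 compound comparisons share no library. The signs were negative for PDS and positive for Phen-DC3 and Braco-19 in 56 members. As a description over members, which share libraries and scaling within each comparison, the Spearman correlation of log2 changes was -0.72 between PDS and Phen-DC3 and between PDS and Braco-19, and 0.66 between Phen-DC3 and Braco-19. No member was called under more than 1 compound: 18 were called with Phen-DC3, 1 with PDS, and 52 with none.

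Gene length was set beside the changes. Across members, the Spearman correlation of gene length with the change was -0.42 under Phen-DC3 and -0.41 under Braco-19, and 0.16 under PDS. Over all 14184 genes it was -0.44, -0.23 and 0.17. The 22 members under 500 bp had a median of 0.49 under Phen-DC3, where all 725 genes of that length had 0.20. The 27 members of 500 to 1000 bp had 0.27 against 0.21, and the 16 of 1000 to 2000 bp had 0.26 against 0.11. Under Braco-19 these medians were 0.36, 0.22 and 0.18, against 0.11, 0.15 and 0.05. For PDS they were -0.17, -0.16 and -0.11, against -0.07, -0.09 and -0.02. In each of these bins the member median lay farther from 0 than that of all genes. With the correction for length the medians over the 71 members were -0.08, 0.18 and 0.17 in the order PDS, Phen-DC3 and Braco-19.

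**Figure D5:**
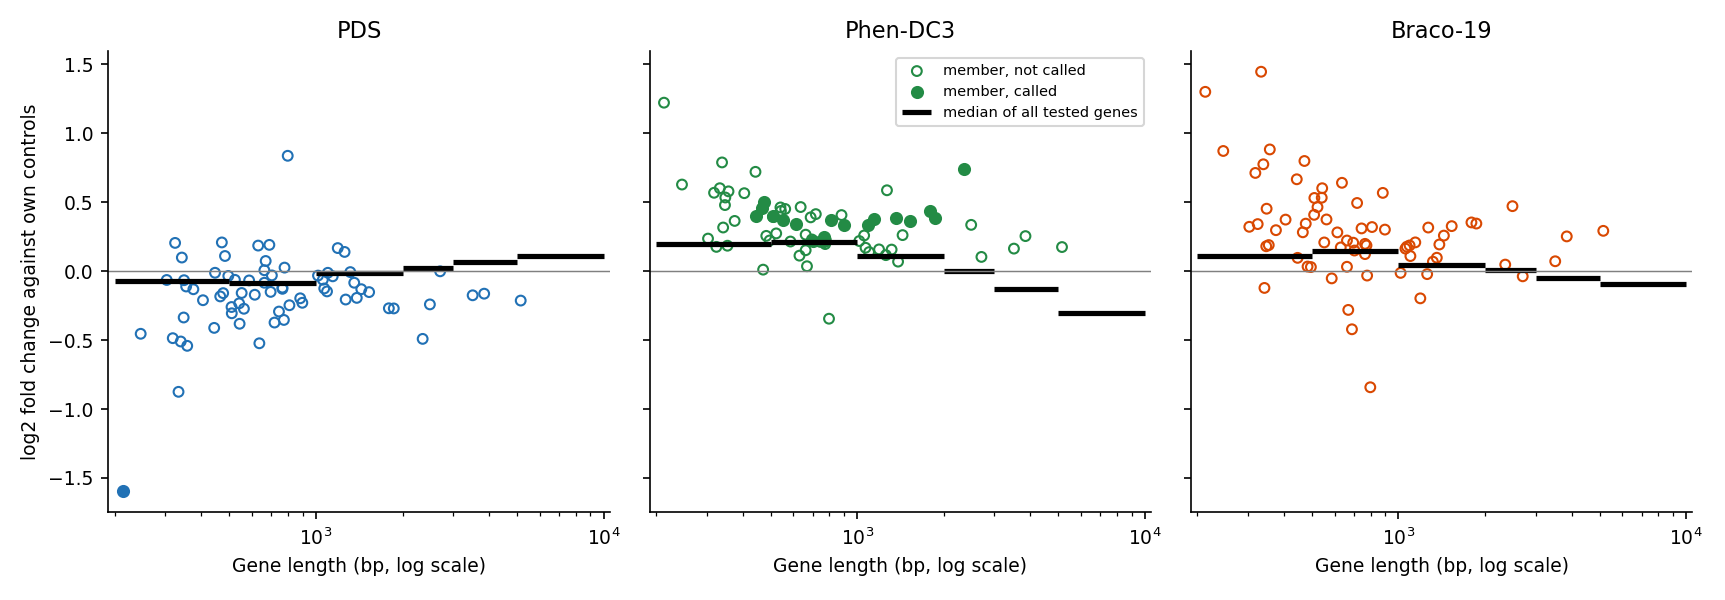
The log2 fold change of 70 tested members (Rplp2 not drawn) against gene length (bp, log scale) for each compound; filled points passed an adjusted p of 0.05, and black lines are medians of all 14184 tested genes in 6 length bins, with the outermost bins drawn in part. The lines slope down with length under Phen-DC3 (from 0.20 under 500 bp to -0.31 above 5000 bp), and members under 1000 bp lie mostly above them under Phen-DC3 and Braco-19 and below them under PDS.

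Members with and without the pyrimidine start, defined above as a C followed by at least 4 pyrimidines, were set side by side. The 20 tested members with it had a median of 0.34 under Phen-DC3, with 7 called, and the 37 with a RefSeq start outside that definition had 0.27, also with 7 called. Some of the 37, such as Rpl27a, Rps23 and Rps10, have a run that begins with T. The counted rows of Rpl9, Rpl35a, Rpl37 and Rpl39, with the pyrimidine start, lie on another chromosome than their promoter entries. Those of Rpl38 and Rps13, among the 37, do too. Under PDS the medians were -0.07 and -0.18, and under Braco-19 they were 0.18 and 0.28. Rpl31, the only member whose entry held the quadruplex pattern, stood at 0.38 ± 0.085 under Phen-DC3 (edgeR adjusted p = 0.017), -0.04 ± 0.085 under PDS (edgeR adjusted p = 0.83) and 0.21 ± 0.086 under Braco-19 (edgeR adjusted p = 0.21).

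Genes that work with the ribosome were described from lists. Over all genes, an unadjusted p under 0.05 was reached by edgeR for 22.8% under PDS, 28.9% under Phen-DC3 and 18.8% under Braco-19. DESeq2 called 5.72% of all genes higher and 4.17% lower under PDS. Those shares were 5.60% and 8.90% under Phen-DC3, and 1.40% and 0.952% under Braco-19. Of 16 tested companions that carry a 5′ TOP motif, 2 were higher under Phen-DC3 (2.19% of all genes), namely Rack1, a scaffold on the 40S subunit, at 0.25 ± 0.070 (edgeR adjusted p = 0.037) and Eef1g, an elongation factor subunit, at 0.29 ± 0.082 (edgeR adjusted p = 0.040). In the same comparison Pabpc1, the poly(A)-binding protein, fell by 0.31 on the log2 scale (edgeR adjusted p = 0.043). The companions' median there was 0.13, and DESeq2 called 5 of the 16 higher and 1 lower. Under PDS the elongation factor Eef2 fell by 0.24 (edgeR adjusted p = 0.029), the companions' median was -0.06, and DESeq2 called 2 lower. For Braco-19, 0 of 16 were called by edgeR or by DESeq2, with 9 and 8 at an unadjusted p under 0.05. In Braco-19 controls 14 of the 16 were lower and 2 higher than in PDS controls, with a median of -0.87.

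Of 34 other translation factors, 2 rose under Phen-DC3 (Eif2b2 and Eif5a, at 0.28 and 0.36) and 2 fell (Eif5b and Eif4g2, at -0.61 and -0.35). DESeq2 called 4 higher and 5 lower there. Under PDS the cap-binding protein Eif4e rose by 0.38 ± 0.087 (edgeR adjusted p = 0.0091). Under Braco-19 edgeR called 0 of the 34, with 7 at an unadjusted p under 0.05, and DESeq2 called 1. The list's medians were 0.06, 0.00 and -0.04 in the order PDS, Phen-DC3 and Braco-19. Of 56 ribosome biogenesis genes, 1 was called by edgeR under any compound, Nop10 of the pseudouridylation particle, at 0.43 ± 0.113 under Phen-DC3 (edgeR adjusted p = 0.030). The list's medians were 0.05 for PDS, -0.02 for Phen-DC3 and 0.03 for Braco-19. For PDS and Braco-19 edgeR called 0, with 10 and 12 of the 56 at an unadjusted p under 0.05, against 22.8% and 18.8% of all genes. DESeq2 called 3 and 4 there. DESeq2 called 1 higher and 5 lower under Phen-DC3. Of 24 regulators of ribosomal protein mRNAs, 1 was called by edgeR under any compound. Larp1, which binds the 5′ TOP motif, fell by 0.39 under Phen-DC3 (SE 0.090, edgeR adjusted p = 0.019). Mtor stood at -0.38 ± 0.120 in that comparison (edgeR adjusted p = 0.052). The regulators' medians were 0.13, -0.03 and -0.02 in the order PDS, Phen-DC3 and Braco-19. For PDS and Braco-19 both tools called 0, each with 5 and 3 at an unadjusted p under 0.05, and for Phen-DC3 DESeq2 called 8. In Braco-19 controls Larp1 was higher than in PDS controls by 1.82 ± 0.090 (edgeR adjusted p = 4.5e-13) and Mtor by 2.16 ± 0.119 (edgeR adjusted p = 2.4e-12). There 11 of the 24 regulators were higher and 8 lower, against 37.7% and 35.6% of all genes. Genes longer than 5000 bp had a median of 1.34 in that comparison and -0.31 under Phen-DC3. The part of gene length in the values of Larp1 and Mtor was not tested.

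The rows described under the same protein names, which the rule left out, gave a further set of values on other rows of the same libraries. They include like-named paralogs such as Rps27l and Rpl7l1. Of 97 tested rows, edgeR called 5 higher (5.15%, against 2.19% of all genes) and 0 lower under Phen-DC3, with a median of 0.30. DESeq2 called 11 of the 97 higher, and 5.60% of all genes. Under PDS 1 was higher (1.03%, against 5.13% of all genes) and 4 lower (4.12%, against 2.96%), with a median of -0.17. Under Braco-19 edgeR called 0, with a median of 0.19. An unadjusted p under 0.05 was reached there by 20 of the 97, near the 18.8% of all genes. DESeq2 called 4 higher and 1 lower, against 1.40% and 0.952% of all genes. In Braco-19 controls 81 of 97 were lower than in PDS controls (83.5%, against 35.6% of all genes), with a median of -1.28. The like-named paralogs, of which 6 were tested, are all but Rpl22l1 also among the 97 rows. Their medians were -0.16, 0.22 and 0.18 under PDS, Phen-DC3 and Braco-19. edgeR called 0 of them, with 1, 3 and 3 at an unadjusted p under 0.05, and DESeq2 called 2, both under Phen-DC3. Rps27l stood at -0.35 ± 0.212, 0.51 ± 0.212 and 0.52 ± 0.216 (edgeR adjusted p = 0.35, 0.14 and 0.23).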

How the data were processed

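Whole-number counts per gene, not normalized, were deposited for 18 libraries with gene lengths and positions. The submitters' processing notes name CASAVA, HISAT2 and featureCounts 1.5.0-p3. With the build and strand setting not given in the sources used here, reads of near-identical copies may have been split between rows. Tests used edgeR 4.0.16 (R 4.3.3, limma 3.58.1), with DESeq2 1.42.0 as an alternative. Genes were filtered with filterByExpr by group and libraries scaled with TMM. A quasi-likelihood model with 1 mean per group was fitted to all libraries with 12 residual degrees of freedom, tests were two-sided, and p-values were adjusted by Benjamini-Hochberg over the 14184 genes of a comparison. Standard errors derive from the F statistic. CPM are on TMM-scaled library sizes. The length correction used a spline with 5 degrees of freedom per library as offsets. On simulated counts 56 of 100 genes changed by 0.5 (log2) and 97 of 100 changed by 1 were recovered for Phen-DC3 among 14036 genes (6 false calls), 48 and 99 for PDS among 14035 (9 false calls), and 56 and 98 for Braco-19 among 14041 (7 false calls). The simulated counts were negative-binomial at the fitted dispersion, with changes placed only in genes at a mean log2 CPM above 3. They held no trend with gene length between a compound and its controls, so these rates may not hold for the real libraries. Motifs were searched in Python 3.11.15. Members and lists were chosen with earlier results of these data known. Named members were those with the 6 smallest p-values of a comparison, the 3 largest changes in each direction at a mean log2 CPM of at least 3, the 4 highest and 4 lowest levels, and a set by role. Up to 3 called or leading genes were named per companion list. Members named outside that rule complete a list of calls or were chosen after their values were seen. Alternatives were other scalings, no filter, DESeq2, fits to fewer groups, the length correction, a replicate block, summed rows and leaving out single libraries. Some members are counted in all totals but not reported here by name.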

Additional observations from a re-analysis of the deposited data

Results flagged for a closer look

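The change against own controls was compared between compounds as an interaction (edgeR), and 2 of the 3 pairs differed for many members. For PDS and Phen-DC3 the changes of 37 of 71 members differed, each lower under PDS. Over all genes 7.76% were lower and 12.4% higher. For PDS and Braco-19 those of 26 members differed, each lower under PDS, against 6.75% of all genes lower and 7.28% higher. On leaving out single libraries these counts fell to as few as 15 and 6, and with the replicate block to 8 and 3. Phen-DC3 controls stood below PDS controls by a median of -0.24 on the log2 scale and Braco-19 controls by -1.43, and the part of these control levels in the differences was not tested.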

How the results depend on the processing

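The counts of members called moved with the processing, while the sign of the members' median was kept under every alternative run except in the difference between Phen-DC3 and Braco-19 effects, whose median ran from -0.02 to 0.12. RLE factors gave 2 lower for PDS, against 3.21% of all genes. Upper-quartile factors gave 4 lower for PDS, against 3.72%. Library totals gave 4 lower for PDS, against 3.29%, and 1 higher for Braco-19, against 0.324%. Without a filter on low counts the difference between PDS and Braco-19 had 17 lower, against 3.57%. DESeq2 gave 4 lower for PDS (4.17% of all genes) and 36 higher for Phen-DC3 (5.60%). It also gave 11 higher for Braco-19 (1.40%) and 21 lower for Phen-DC3 controls against PDS controls (4.07%). With only the groups compared in the fit there were 20 for PDS, 0 for Phen-DC3 (36 at an unadjusted p under 0.05), 18 for Braco-19, 42 for PDS against Braco-19 effects (41 lower and 1 higher) and 0 for Phen-DC3 controls against PDS controls. Of all genes in those fits 8.08% were lower for PDS and 3.21% higher for Braco-19. For PDS against Braco-19 effects 12.4% were lower and 10.8% higher. The share of all genes at an unadjusted p was not counted in those fits. The length correction, with the trend fitted on all genes or without the members, gave 0 for Phen-DC3, 13 for PDS against Phen-DC3 effects and 3 for Phen-DC3 controls against PDS controls. With the trend fitted on all genes, 0.120% of all genes were higher for Phen-DC3. The shares lower were 5.50% for PDS against Phen-DC3 effects and 0.888% for Phen-DC3 controls against PDS controls. With rows on another chromosome left out, chosen after seeing the data, PDS had 0. Counted in either direction, leaving out single libraries gave 0 to 1 for PDS, 0 to 38 for Phen-DC3 and 0 to 3 for Braco-19. For differences of effects it gave 15 to 44 and 6 to 34 for PDS against Phen-DC3 and Braco-19, and 0 to 0 for Phen-DC3 against Braco-19. For controls it gave 0 to 23 for Phen-DC3 controls, and 68 to 70 and 67 to 68 for Braco-19 controls against PDS and Phen-DC3 controls. The remaining alternatives kept every count within 1.5 times. The cause of these shifts was not tested.

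Same-numbered treated and control libraries did not deviate together: the correlations of their deviations from group means were -0.04, 0.06 and 0.00 for PDS, -0.12, -0.03 and -0.25 for Phen-DC3 and 0.06, 0.07 and 0.01 for Braco-19, so the numbers give no pairing. With the replicate block the counts were 0 for PDS, 0 for Phen-DC3 (42 at an unadjusted p under 0.05), 8 for PDS against Phen-DC3 effects and 3 for PDS against Braco-19 effects. With the block 1.47% of all genes were lower for PDS and 0.00705% higher for Phen-DC3. Lower shares were 2.51% for PDS against Phen-DC3 effects and 1.95% for PDS against Braco-19 effects. The share of all genes at an unadjusted p was not counted with the block. Few counts limit the rows of Rplp2 (118 of 65910 counts described as that protein) and Rpl38 (294 of 44320).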
